A study of Mus musculus with 20 samples.

Results

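A group of 7 transcription factor genes that mark inhibitory interneurons of the forebrain were followed through the series: Dlx1, Dlx2, Dlx5, Dlx6, Lhx6, Sp8 and Sp9. The members were chosen by symbol, with earlier results of these data known, and all 7 were found among the 55487 genes of the count table. The series measured RNA of subcerebral projection neurons from mice at postnatal day 1, in 20 libraries that form 4 groups of 5. The groups were wild-type (WT) somata, somata labelled as Bcl11b knockout (KO), WT growth cones and growth cones labelled KO. The soma libraries came from cortex and the growth cone libraries, made from the tips of growing axons, from brainstem and spinal cord. Strain, sex, the allele design and the number of animals per library are not given in the labels used here. The p-values below therefore measure the spread between these libraries, which may in part be technical. Libraries are named by the experiment numbers of their titles.

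Subcerebral projection neurons are glutamatergic neurons of the cortex, and Bcl11b, which is also called Ctip2, is a transcription factor they need to extend their axons. The genes described here belong to another lineage. Dlx homeobox genes are switched on in progenitors of the ganglionic eminences, the ventral forebrain zones that produce GABAergic neurons, which then migrate into cortex, striatum and olfactory bulb. Lhx6 follows Nkx2-1 in neurons of the medial ganglionic eminence, and Sp8 and Sp9 are zinc finger genes of the lateral and caudal eminences and of striatal neurons.

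The 20 libraries held 18962308 to 51205154 counts and 17433 to 20084 detected genes each. No 2 libraries of a group had counts alike within sampling noise (chi-square per degree of freedom was at least 52.7), so none was merged and each was used as 1 replicate. This does not show that the libraries came from separate animals or RNA. Levels are given as CPM, each count divided by its library's total and scaled up. A count of 0 allows up to 3 counts, which is 0.0586 to 0.158 CPM across somata and 0.102 to 0.139 CPM across growth cones. Such limits cover counting error only. The targeted gene went against the soma labels. Bcl11b stood at 561, 780, 711, 731 and 494 CPM in WT somata 12, 14, 22, 25 and 26, and at 1151, 1065, 1048, 1023 and 1125 CPM in somata labelled KO 14, 15, 22, 25 and 26. The soma groups did not overlap, and mean log2(CPM + 0.5) was 0.74 higher in somata labelled KO (two-sided exact permutation test over 252 regroupings, p = 0.00794, the smallest they can give). These regroupings ignore shared experiment numbers. The edgeR adjusted p of this difference was 0.0153. It was 0.162 with the experiment number as a block and 0.279 in a fit of all 20 libraries. In growth cones the Bcl11b means were 108 ± 20.1 (SD, n = 5) in WT and 108 ± 35.3 CPM in libraries labelled KO, a log2 difference of -0.04 (exact permutation p = 0.905). A count per gene does not tell exons apart, so a partial deletion would not be seen, and every group is called by its label. Fezf2, which specifies subcerebral projection neurons, was present in all somata, at 284 ± 23.2 CPM in WT and 340.3 ± 26.03 CPM in those labelled KO.

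The 7 genes lie on chromosomes 2, 6 and 12 (GRCm38, coordinates of the deposited table). Dlx1 (chr2:71528113-71533981, plus strand) and Dlx2 (chr2:71543408-71546754, minus strand) stand tail to tail 9.43 kb apart with 0 genes wholly between them. Dlx6 (chr6:6863334-6868568, plus strand) and Dlx5 (chr6:6877805-6882085, minus strand) form a like pair 9.24 kb apart with 1 annotated gene between them. Sp9 (chr2:73271925-73284706, plus strand) lies on the same chromosome as Dlx1 and Dlx2, 1725 kb from Dlx2. Lhx6 (chr2:36081953-36105408, minus strand) and Sp8 (chr12:118846329-118852576, plus strand) have no other member near. Of the opposite-strand neighbours with counts, Dlx1as shares 335 exon bases with Dlx1 (6.21% of its exon length) and Cir1 shares 270 with Sp9 (5.35%). Dlx6os1 shares 0 exon bases with Dlx6. The sources used here do not say whether strand was used in counting.

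Read sharing between paralogs was looked at in the coding sequences of the GENCODE M21 transcripts. The longest stretches identical within 2 pairs of paralogs are printed here as examples, with capitals marking the identical bases. In Sp8 and Sp9 the stretch runs over coding bases 1090 to 1133 and 1018 to 1061. In Dlx1 and Dlx2 it runs over coding bases 541 to 555 and 622 to 636.
Sp8 and Sp9: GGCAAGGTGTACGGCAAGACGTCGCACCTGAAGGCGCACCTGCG
Dlx1 and Dlx2: TCCAAGTTCAAGAAG
The 44 bases shared by Sp8 and Sp9 were the longest run among all 21 pairs of members, and Dlx1 and Dlx2 shared at most 15. Dlx2 and Dlx6 shared a longer coding run, of 23 bases. Over whole transcripts Dlx6 shared up to 37 bases with Lhx6 and 37 with Sp9, and Lhx6 shared up to 36 with Sp9. Neither the read length nor the handling of multi-mapping reads is given in the sources used here.

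Since the genes were higher together in growth cone libraries, the 250 bases before their starts were examined in RefSeq promoter windows (GRCm38.p6), which matched 5 members with 9 windows. The windows of the 4 members whose RefSeq start lies within 1 base of the start in the count table are shown, each read 5′ to 3′ on the gene's strand. They are Dlx2 (chr2:71546755-71547004, minus strand), Lhx6 (chr2:36105409-36105658, minus strand), Sp9 (chr2:73271676-73271925, plus strand) and Sp8 (chr12:118846079-118846328, plus strand). Capitals mark the motifs searched on both strands: TAATTA, the core bound by many homeodomain proteins, CCAAT (reverse ATTGG), the NF-Y box, and GGGCGG (reverse CCGCCC), the GC box that Sp proteins bind.
Dlx2: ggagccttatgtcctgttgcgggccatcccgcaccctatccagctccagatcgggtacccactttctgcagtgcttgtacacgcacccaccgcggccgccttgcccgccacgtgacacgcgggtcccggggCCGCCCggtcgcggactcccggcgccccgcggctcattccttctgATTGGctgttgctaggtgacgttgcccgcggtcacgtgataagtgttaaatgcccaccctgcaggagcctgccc
Lhx6: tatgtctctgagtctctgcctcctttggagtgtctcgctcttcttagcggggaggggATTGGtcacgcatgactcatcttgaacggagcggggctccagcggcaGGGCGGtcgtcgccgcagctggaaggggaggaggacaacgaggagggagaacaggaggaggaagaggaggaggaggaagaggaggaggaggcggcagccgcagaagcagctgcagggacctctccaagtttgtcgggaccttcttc
Sp9: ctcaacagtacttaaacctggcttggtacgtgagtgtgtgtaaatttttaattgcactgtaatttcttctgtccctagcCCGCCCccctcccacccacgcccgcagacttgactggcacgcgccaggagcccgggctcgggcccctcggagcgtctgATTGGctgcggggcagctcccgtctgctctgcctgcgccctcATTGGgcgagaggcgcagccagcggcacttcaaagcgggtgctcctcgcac
Sp8: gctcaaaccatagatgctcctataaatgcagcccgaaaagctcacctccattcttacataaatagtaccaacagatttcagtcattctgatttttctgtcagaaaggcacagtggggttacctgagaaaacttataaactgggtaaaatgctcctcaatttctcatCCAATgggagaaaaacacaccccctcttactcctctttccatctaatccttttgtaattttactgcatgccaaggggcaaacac
The Dlx2 and Lhx6 windows each held 1 CCAAT box and 1 GC box, the Sp9 window held 2 CCAAT boxes and 1 GC box, and the Sp8 window held 1 CCAAT box. None of these 4 windows held TAATTA. Of 32851 RefSeq windows of the same length, 33.8% held CCAAT, 32.7% held GGGCGG and 4.84% held TAATTA in either direction. No matches overlapped in the windows shown, and a match describes letters only.

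The main comparison was that of growth cones with somata within a genotype. In both genotypes each member that could be tested was higher in growth cones. In WT, 6 of the 7 members passed the filter on low counts, all but Dlx6, and 6 were higher, where 23.1% of 15128 tested genes were. In libraries labelled KO, 6 passed the filter, all but Sp8, and 6 were higher, where 21.6% of 15410 genes were. A gene near 0 in somata enters the test only if it is counted in growth cones, so these counts are a description. The members' median log2 fold change was 4.01 in WT and 3.78 in libraries labelled KO, against 0.07 and 0.11 over all genes tested. The summed level of the 7 genes was 18.9 ± 10.53 CPM (SD, n = 5) in WT somata and 257 ± 32.7 CPM in WT growth cones, and 19.5 ± 12.1 and 268 ± 81.4 CPM in libraries labelled KO, ratios of 13.6 and 13.7. Tissue, experiment number and the range of RNA input (1.8 to 3.1 ng for somata, 0.19 to 3.1 ng for growth cones) all follow the compartment and cannot be told apart from it. In bulk libraries a smaller share of cells of a type and less RNA per cell cannot be told apart either.

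**Figure D1:**
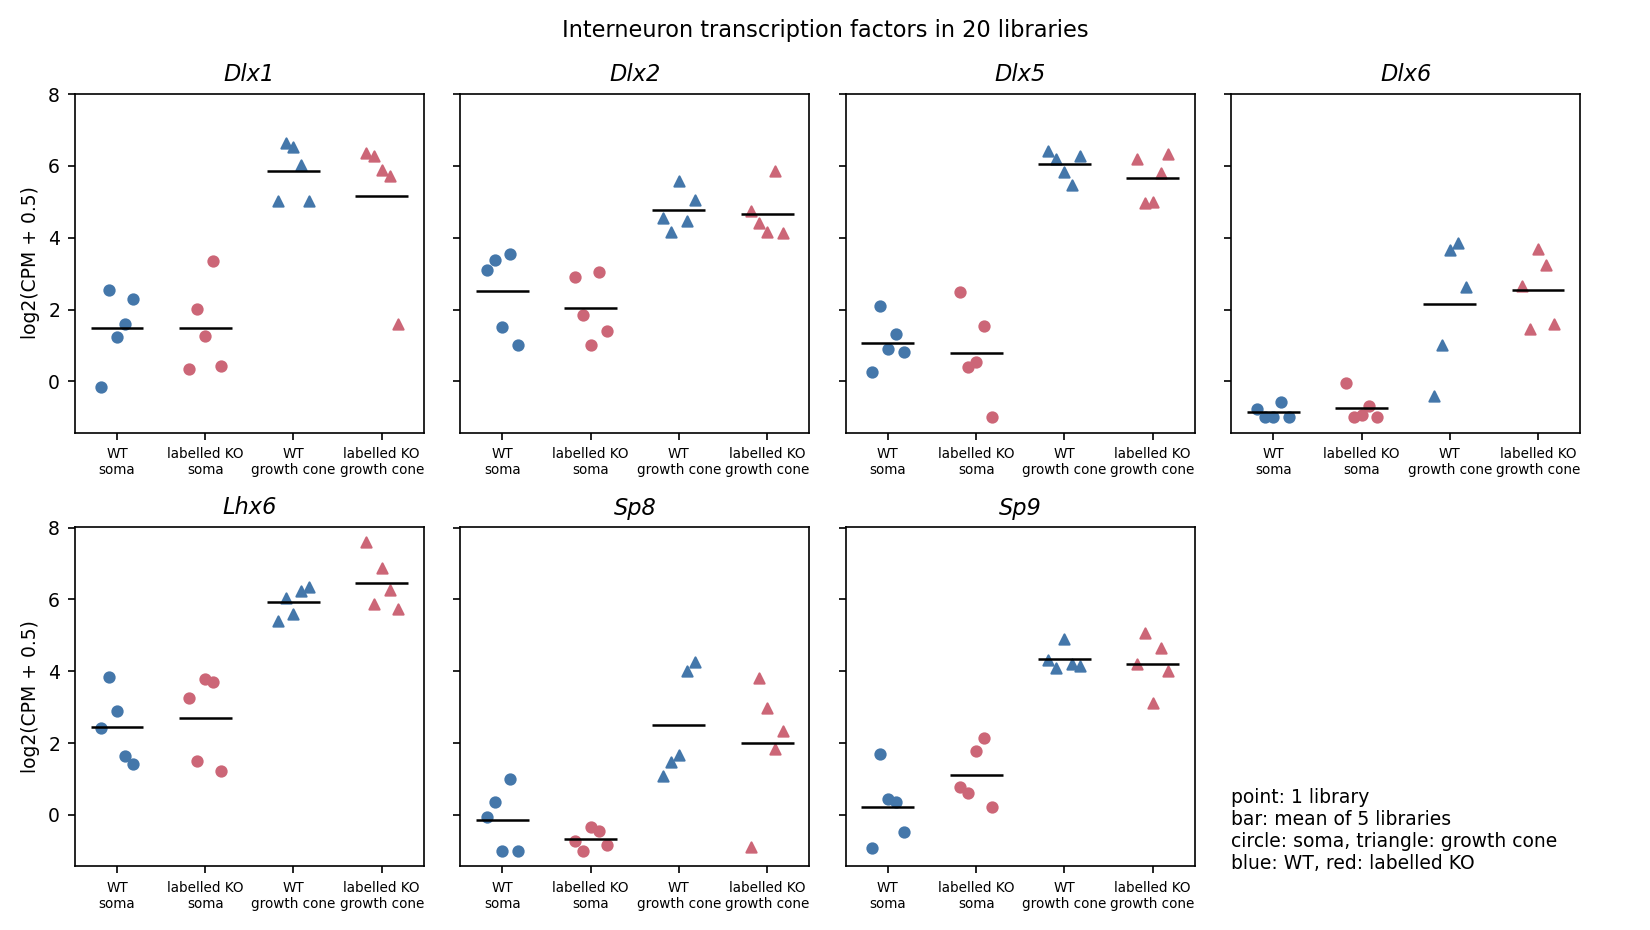
Level of each of the 7 genes in all 20 libraries, as log2(CPM + 0.5), by group. Points are libraries and bars are means of 5. Growth cone points lie above soma points for nearly every gene, and the 1 low Dlx1 triangle is growth cone 11 labelled KO at 2.54 CPM.

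Dlx5, a homeobox gene of late progenitors and young GABAergic neurons, had the highest fold change among the members tested in WT. It stood at 0.695, 3.80, 1.38, 1.97 and 1.27 CPM in WT somata 12, 14, 22, 25 and 26, and at 85.0, 73.4, 56.3, 44.2 and 77.4 CPM in WT growth cones 7 to 11. In somata labelled KO 14, 15, 22, 25 and 26 it stood at 5.14, 0.811, 0.937, 2.40 and 0 CPM, the last allowing up to 0.0851 CPM, and in growth cones labelled KO 7 to 11 at 73.0, 30.8, 31.6, 55.9 and 80.7 CPM. The compartments did not overlap in either genotype, and the lowest growth cone library, growth cone 8 labelled KO, was above every soma library. The log2 fold change was 5.08 ± 0.49 (SE) in WT (edgeR adjusted p = 8.31e-06), against 4.83 ± 1.01 in libraries labelled KO (edgeR adjusted p = 0.00269).

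Dlx6, its neighbour on chromosome 6, was almost absent from somata. WT somata 12, 14, 22, 25 and 26 held 3, 0, 0, 6 and 0 counts, and somata labelled KO 14, 15, 22, 25 and 26 held 18, 0, 1, 5 and 0 counts. WT growth cones 7 to 11 stood at 0.246, 1.53, 12.1, 13.9 and 5.70 CPM, and those labelled KO at 5.82, 2.27, 12.4, 8.98 and 2.54 CPM. The growth cone values spread widely, with WT growth cones 7 and 8 lowest, and no growth cone library fell within the range of its somata. In WT the gap was small, with 7 counts in growth cone 7 against 6 in soma 25 (0.246 and 0.166 CPM), which is within counting error. Soma 14 labelled KO, at 0.463 CPM, lay above WT growth cone 7. Dlx6 was too low for the count filter in the WT comparison. In libraries labelled KO its log2 fold change was 5.65 ± 1.43 (edgeR adjusted p = 0.00836), and in WT without the filter it was 6.66 ± 1.61 (edgeR adjusted p = 0.00931).

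Dlx1, which acts with Dlx2 in progenitors and persists in several classes of cortical interneuron, stood at 0.393, 5.30, 1.85, 2.52 and 4.38 CPM in WT somata and at 32.1, 99.5, 91.9, 64.9 and 31.8 CPM in WT growth cones, in the library order used above. In somata labelled KO it stood at 0.771, 3.54, 1.87, 9.69 and 0.851 CPM, and in growth cones labelled KO at 81.4, 77.5, 59.2, 52.7 and 2.54 CPM. Growth cone 11 labelled KO fell within the soma range, so the compartments overlapped in libraries labelled KO and not in WT. The log2 fold change was 4.34 ± 0.66 in WT (edgeR adjusted p = 0.00023), against 3.94 ± 0.94 in libraries labelled KO (edgeR adjusted p = 0.00604).

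Dlx2, the partner of Dlx1, had the lowest fold change of the members tested. WT somata stood at 8.16, 9.88, 2.35, 11.1 and 1.53 CPM and WT growth cones at 23.0, 17.5, 47.2, 21.8 and 32.6 CPM. Somata labelled KO stood at 7.04, 3.11, 1.504, 7.78 and 2.13 CPM and growth cones labelled KO at 26.5, 21.0, 17.4, 57.8 and 17.0 CPM. No library of one compartment reached the range of the other, although the gap in WT was narrow, from 11.1 CPM in soma 25 to 17.5 CPM in growth cone 8. The log2 fold change was 1.97 ± 0.58 in WT (edgeR adjusted p = 0.0161), against 2.58 ± 0.59 in libraries labelled KO (edgeR adjusted p = 0.00445).

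Lhx6, the LIM homeodomain gene that directs somatostatin and parvalbumin interneurons of the medial eminence, stood at 4.83, 13.8, 6.86, 2.61 and 2.16 CPM in WT somata and at 41.8, 65.0, 48.3, 74.6 and 81.7 CPM in WT growth cones. Somata labelled KO stood at 8.97, 2.32, 13.3, 12.6 and 1.84 CPM and growth cones labelled KO at 192, 58.1, 118, 76.4 and 52.5 CPM. The compartments did not overlap, and growth cone 7 labelled KO held the highest level of any member in any library, also per exon length (40.01 RPKM). The log2 fold change was 3.23 ± 0.50 in WT (edgeR adjusted p = 0.000295), against 3.62 ± 0.65 in libraries labelled KO (edgeR adjusted p = 0.00101).

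Sp9, a zinc finger gene of the lateral and medial eminences and of striatal projection neurons, stood at 0.0302, 2.76, 0.851, 0.777 and 0.211 CPM in WT somata and at 19.5, 16.5, 29.5, 17.8 and 17.2 CPM in WT growth cones. Somata labelled KO stood at 1.21, 1.04, 2.95, 3.93 and 0.653 CPM and growth cones labelled KO at 17.8, 32.8, 8.12, 24.3 and 15.7 CPM. The compartments did not overlap in either genotype. The log2 fold change was 4.30 ± 0.93 in WT (edgeR adjusted p = 0.00273), against 3.22 ± 0.66 in libraries labelled KO (edgeR adjusted p = 0.00243).

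Sp8, the paralog of Sp9 found in olfactory bulb and caudal eminence interneurons, varied most between growth cones of the members in each genotype (coefficient of variation 101% in WT and 89.3% in libraries labelled KO), though not between somata. WT somata stood at 0.453, 0.777, 0, 1.498 and 0 CPM, and WT growth cones at 1.62, 2.30, 2.65, 15.6 and 18.7 CPM. WT growth cones 10 and 11 were far above the other 3, and the lowest WT growth cone was just above the highest WT soma. Somata labelled KO held 4, 0, 15, 10 and 2 counts. Growth cones labelled KO stood at 0.0398, 13.5, 7.36, 3.08 and 4.52 CPM, so growth cone 7 labelled KO, with 1 count, lay within the soma range. In WT the log2 fold change was 3.72 ± 1.40 (edgeR adjusted p = 0.0485). This call was lost in 8 of 16 alternatives, with an adjusted p of 0.00537 to 0.104 over all of them, and of 0.104 without WT growth cone 11. Sp8 was below the count filter in libraries labelled KO, and without the filter its log2 fold change was 5.13 ± 1.47 (edgeR adjusted p = 0.0277).

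**Figure D2:**
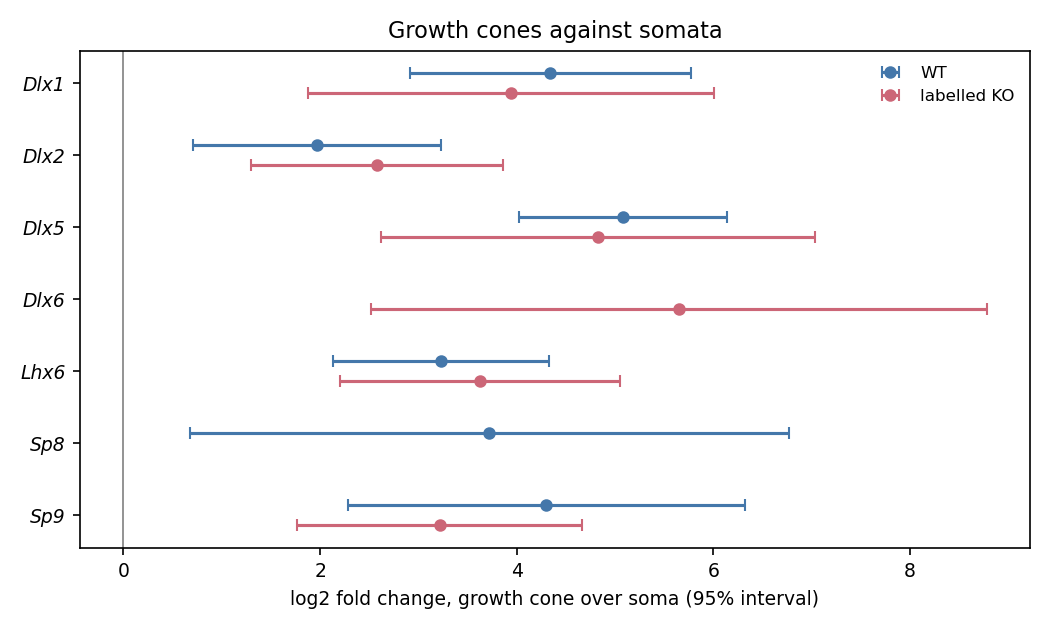
Log2 fold change of growth cones over somata for the 7 genes, with 95% intervals from the edgeR fit, in WT and in libraries labelled KO. All intervals drawn lie above 0, from the lowest estimate of 1.97 (Dlx2, WT) to the highest of 5.65 (Dlx6, labelled KO). Dlx6 in WT and Sp8 in libraries labelled KO were below the count filter and are not drawn.

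The compartments did not overlap for 6 of 6 tested members in WT, where 22.1% of tested genes lay wholly higher, and for 5 of 6 in libraries labelled KO, where 20% did. Sp8 in WT and Dlx6 in libraries labelled KO were too low in somata for the filter and entered through growth cones. These counts are therefore a description too. With library totals, DESeq2 size factors or the upper quartile in place of TMM scaling each compartment call of the members remained. The upper quartile moved the median of all genes the most, from 0.07 to 0.28 in WT and from 0.11 to 0.31 in libraries labelled KO, and the share of calls that were higher from 54.0% to 63.0% and from 56.0% to 64.0%. An interaction term in a fit of the 20 libraries tested whether the growth cone difference itself depended on genotype, and 0 of 7 members passed, where 0.0397% of 17645 genes did. The members' interaction estimates ran from -1.12 (Sp9, 95% interval -3.26 to 1.03) to 1.43 (Sp8, -2.39 to 5.25). These intervals are wide.

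Levels were set against each other per exon length (RPKM, the CPM per kilobase of exon). In WT growth cones the order was Dlx5 at 29.7 ± 7.35, Lhx6 at 13.0 ± 3.53, Dlx1 at 11.9 ± 5.92, Dlx2 at 9.96 ± 4.16, Sp9 at 3.99 ± 1.07, Dlx6 at 2.82 ± 2.59 and Sp8 at 1.79 ± 1.81 RPKM (SD, n = 5). Dlx5 did not overlap Lhx6 and Dlx2 did not overlap Sp9, while all other neighbours in the order overlapped between libraries. In growth cones labelled KO the order was the same, from Dlx5 at 24.04 ± 10.2 and Lhx6 at 20.7 ± 12.04 to Sp8 at 1.25 ± 1.12 RPKM, and each gene overlapped the next. In somata Dlx2 (2.31 ± 1.54 in WT, 1.51 ± 1.02 in those labelled KO) and Lhx6 (1.26 ± 0.982 and 1.62 ± 1.14 RPKM) led, and Dlx5 was the third in both soma groups. All neighbours in the soma orders overlapped. The coefficient of variation between libraries had a median over the 7 genes of 78.0% in WT somata and 89.3% in those labelled KO, and of 41.8% and 58.2% in growth cones.

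Other genes were read from lists. Of 20 further regulators of ventral forebrain neurons, 18 were tested in WT, of which 13 passed as higher in growth cones and 4 as lower. In libraries labelled KO 17 were tested, 11 higher and 5 lower. Over all genes tested, 23.1% passed as higher and 19.7% as lower in WT, and 21.6% and 17% in libraries labelled KO. Nkx2-1, the medial eminence gene upstream of Lhx6, stood at 6.90 to 15.9 CPM in WT growth cones and at 0 to 0.374 CPM in WT somata (log2 fold change 6.97, edgeR adjusted p = 0.00148). In growth cones labelled KO it ran from 0 to 9.27 CPM. Nr2f1, an orphan nuclear receptor gene also active in cortical progenitors, was higher by 4.14 in WT and 3.95 in libraries labelled KO on the log2 scale. Meis2, a homeobox gene of striatal and other forebrain neurons, was 2.83-fold higher in libraries labelled KO (edgeR adjusted p = 5.26e-05). Of the genes that passed as lower, Nfix (-2.12 and -2.25 on the log2 scale), Nfib (-1.70 and -1.46) and Satb1 (-1.15 and -1.08) were lower in growth cones of both genotypes. Unlike the members, Nfix and Nfib were abundant in WT somata, with means of 537 and 580 CPM. The summed level of the 20 genes was lower in growth cones, at 1331 ± 205 against 1778 ± 115 CPM in somata in WT. In libraries labelled KO it was 1300 ± 200 against 2071 ± 139 CPM.

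The RNAs transcribed opposite the Dlx genes were read apart from the members. Dlx6os1, also known as Evf2, stood at 31.6, 78.5, 6.62, 40.9 and 19.3 CPM in WT growth cones 7 to 11 and at 4.65, 0.893, 0.0587, 0.166 and 4.64 CPM in WT somata. The WT compartments did not overlap, and the log2 fold change was 3.98 ± 1.10 (edgeR adjusted p = 0.0117). In growth cones labelled KO it stood at 16.2, 16.7, 9.05, 15.3 and 2.86 CPM, and there the log2 fold change over somata of 2.48 did not pass (edgeR adjusted p = 0.107). Dlx1as had a log2 fold change of 3.58 in WT (edgeR adjusted p = 0.0191), a call that was lost in 4 of 16 alternatives, in which the edgeR adjusted p reached 0.0657.

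A list of 20 genes that interneurons use for transmission or as class markers moved in part. In WT 19 were tested, of which 11 passed as higher in growth cones, 1 passed as lower and 7 missed the threshold. In libraries labelled KO 18 were tested, with 13 higher, 1 lower and 4 that missed it. Gad1, which makes GABA, stood at 102 to 203 CPM in WT growth cones and 0.181 to 9.15 CPM in WT somata, and its log2 fold change was 5.12 in WT and 4.29 in libraries labelled KO (edgeR adjusted p = 0.000189 and 3.24e-05). Gad2, the second GABA-making enzyme, was higher by 3.44 and 4.83, and Slc32a1, the vesicular GABA transporter, by 5.33 and 6.06 on the log2 scale. Which neurons the RNAs of Gad1, Gad2 and Slc32a1 came from was not tested. Genes of spinal inhibitory neurons, described below, were also higher in growth cones, which came from brainstem and spinal cord. Sst, the somatostatin gene of an Lhx6 lineage class, went from 3.96 ± 1.39 to 137 ± 29.2 CPM in WT and from 4.58 ± 2.15 to 153 ± 45.6 CPM in libraries labelled KO (log2 fold changes 4.98 and 4.999, edgeR adjusted p = 4.84e-07 and 1.38e-05). Npy, a neuropeptide gene of interneurons that other neurons use too, did not follow. Its compartment difference was 0.50 in WT (edgeR adjusted p = 0.169), and it was lower (-1.46) in libraries labelled KO (edgeR adjusted p = 0.000938).

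Markers of other cells also moved with the compartment, and their part in the result was not tested. Summed over 8 markers, the astrocyte level was 29.1 to 258 CPM in WT somata and 1798 to 2423 CPM in WT growth cones, with 7 of 8 genes higher, and 6 of 8 in libraries labelled KO. The oligodendrocyte sum was 57.7 to 101 CPM in WT somata and 523 to 2245 CPM in WT growth cones, with 5 of 8 higher in each genotype. The vessel and blood sum was 2.99 to 22.1 and 263 to 510.1 CPM, with 2 of 7 tested genes higher in each genotype, both haemoglobin genes. The sum of 10 genes of spinal inhibitory neurons was 0 to 2.14 CPM in WT somata, where 4 of the 10 were at 0 in all libraries, and 38.9 to 70.7 CPM in WT growth cones. Of these, 3 of 4 tested genes passed as higher in WT and 6 of 7 in libraries labelled KO. Over all genes tested, 23.1% and 21.6% passed as higher. Of the 10 genes, 0 passed the count filter between the soma groups, so those tested entered through growth cones. These counts are therefore a description. Ptf1a was at 0 in all 20 libraries. The WT call of Lhx5 (edgeR adjusted p = 0.0320) was lost in 8 of 16 alternatives, among them the fits without WT somata 12, 14, 22 and 26 and without WT growth cones 10 and 11 (adjusted p up to 0.0655). The microglia sum (43.9 ± 36.0 and 64.6 ± 12.5 CPM in WT) and the cycling cell sum (84.5 ± 7.48 and 122 ± 23.3 CPM) differed less, with 1 of 8 and 2 of 8 genes higher and 0 and 1 lower. Of the cycling cell genes, the call of Cdk1 (edgeR adjusted p = 0.0303) was lost in 7 of 16 alternatives, among them the fits without WT somata 22, 25 and 26 and without WT growth cones 7 and 9 (adjusted p up to 0.0953 over all 16).

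In libraries labelled KO the same sums went from 121 to 351 up to 1851 to 2553 CPM for astrocytes and from 65.1 to 93.2 up to 516 to 1561 CPM for oligodendrocytes. They went from 0.284 to 66.2 up to 242 to 562 CPM for vessels and blood, and from 0 to 2.13 up to 22.1 to 122 CPM for spinal inhibitory neurons. Microglia ran from 11.5 to 124 CPM in somata and 27.4 to 130 CPM in growth cones, with 1 of 8 genes higher. Cycling cells ran from 70.6 to 93.8 and 59.1 to 140 CPM, with 3 of 8 higher and 1 lower. Of these 3 calls, Mki67 (edgeR adjusted p = 0.0372) was lost in 8 of 16 alternatives and Top2a (0.0472) in 9 of 16, with adjusted p up to 0.0830 and 0.108. Both were lost without each of somata 15, 22, 25 and 26 and growth cones 7, 8 and 9 labelled KO, and Top2a also without growth cone 10 labelled KO.

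Striatal neurons share the Dlx lineage. Of 12 striatal genes 11 were tested in WT, with 5 higher and 1 lower in growth cones, and 12 in libraries labelled KO, also with 5 higher and 1 lower. Penk, the enkephalin gene, was higher by 3.97 and 3.67 on the log2 scale (edgeR adjusted p = 3.45e-05 in WT). The 10 genes of glutamatergic cortical neurons summed to 1666 ± 88.4 CPM in WT somata and 1178 ± 192 CPM in WT growth cones, and to 2115 ± 80.0 and 1276 ± 363 CPM in libraries labelled KO. Of them 2 were higher and 3 lower in WT, and 2 higher and 4 lower in libraries labelled KO. Slc17a6, a vesicular glutamate transporter of brainstem and spinal cord neurons that young cortical neurons also use, was higher by 3.97 in WT. Fezf2 was lower by a log2 fold change of -1.53 in WT.

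**Figure D3:**
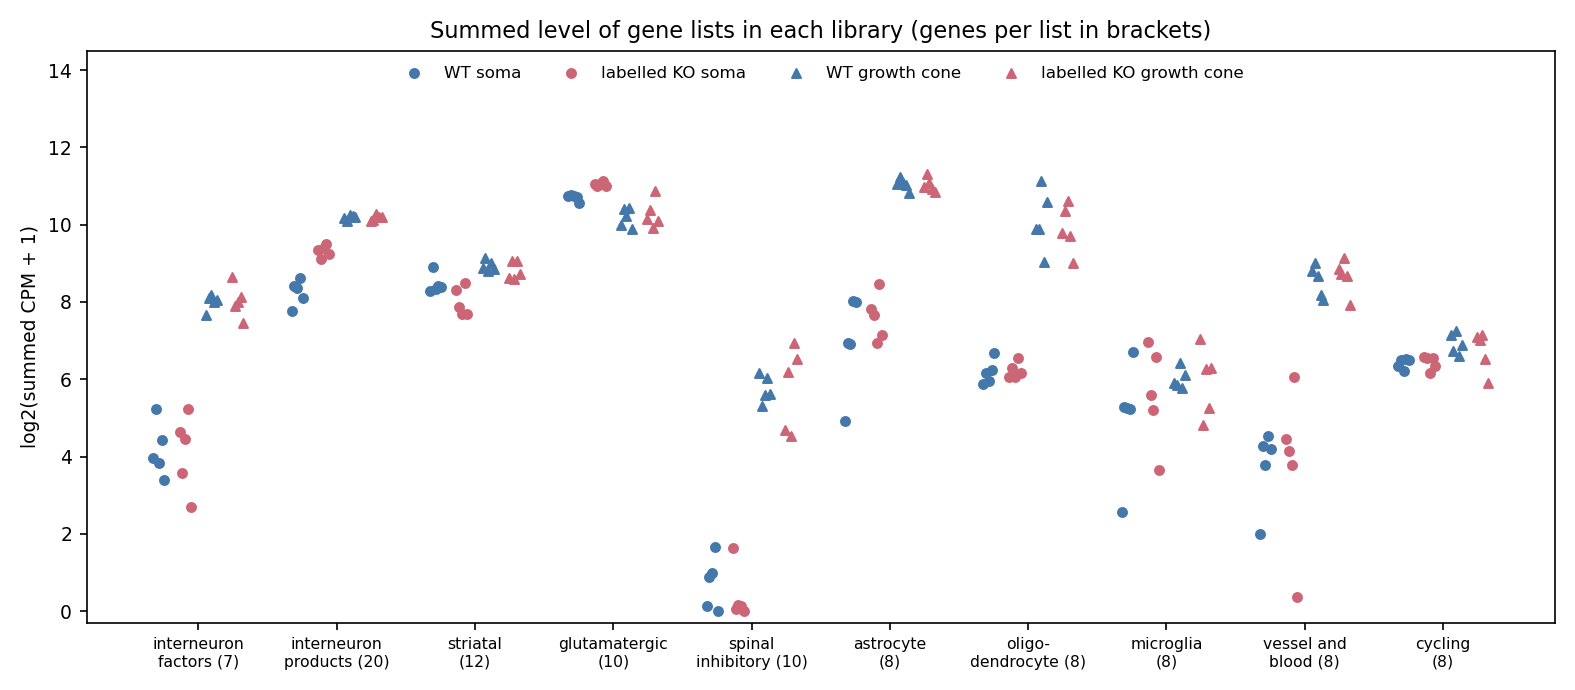
Summed level of 10 gene lists in every library, as log2(summed CPM + 1). The interneuron factors sit at 5.53 to 36.8 CPM in somata and 175 to 397 CPM in growth cones, and the astrocyte, oligodendrocyte, vessel and blood and spinal inhibitory sums are also higher in growth cones. The glutamatergic sum is lower in most growth cone libraries.

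Relatives of the members in the same gene families served as a comparison by family. Of 7 other Sp genes, 4 were tested in WT and 0 passed, and 5 were tested in libraries labelled KO, where Sp5 alone passed as higher (log2 fold change 4.43, edgeR adjusted p = 0.0414). The Sp5 call was lost in 11 of 16 alternatives, among them the fits without each library labelled KO except soma 15, with adjusted p up to 0.0967. Of 10 other LIM factor genes and their partners 6 were tested in each genotype, with 3 higher and 2 lower in both. Lmo4, a LIM-only gene, was higher by 3.39 and 3.07 on the log2 scale, and Lmo3 was lower (-2.03 and -2.48).

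The second comparison set libraries labelled KO against WT within a compartment. No member passed in either compartment. In somata 5 members were tested and 0 passed, where 0.731% of 14911 genes did, and Dlx6 and Sp8 were below the count filter. In growth cones 7 were tested and 0 passed, where 0% of 15419 genes did. There 329 genes (2.13% of those tested), none of them a member, had an unadjusted edgeR p under 0.05. The DESeq2 Wald test called 11 genes, of which 0 were members. A p that misses the threshold does not show that the groups are alike, and the intervals give what these libraries allow.

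In somata the log2 fold change of libraries labelled KO over WT was 0.20 for Dlx1 (95% interval -1.59 to 1.99), -0.63 for Dlx2 (-2.02 to 0.76) and 0.00 for Dlx5 (-2.25 to 2.25). It was 0.36 for Lhx6 (-1.07 to 1.79) and 1.07 for Sp9 (-0.97 to 3.12), and the edgeR adjusted p-values of the 5 ran from 0.924 to 1.00. The groups overlapped for each of the 5, where 3.15% of tested genes did not overlap. In growth cones the narrowest intervals were those of Dlx5 (-0.28, -1.02 to 0.47) and Lhx6 (0.72, -0.10 to 1.54). Lhx6, whose growth cone difference was the largest in size among the members, had an edgeR adjusted p of 0.999, and its difference was 0.29 without growth cone 7 labelled KO. The growth cone differences of Dlx1 (-0.21), Dlx2 (-0.01), Sp9 (-0.02), Dlx6 (-0.03) and Sp8 (-0.52) had 95% intervals that were narrowest for Dlx2 (-0.99 to 0.97) and widest for Sp8 (-3.01 to 1.97). The growth cone groups overlapped for each of the 7, where 0.493% of tested genes did not.

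**Figure D4:**
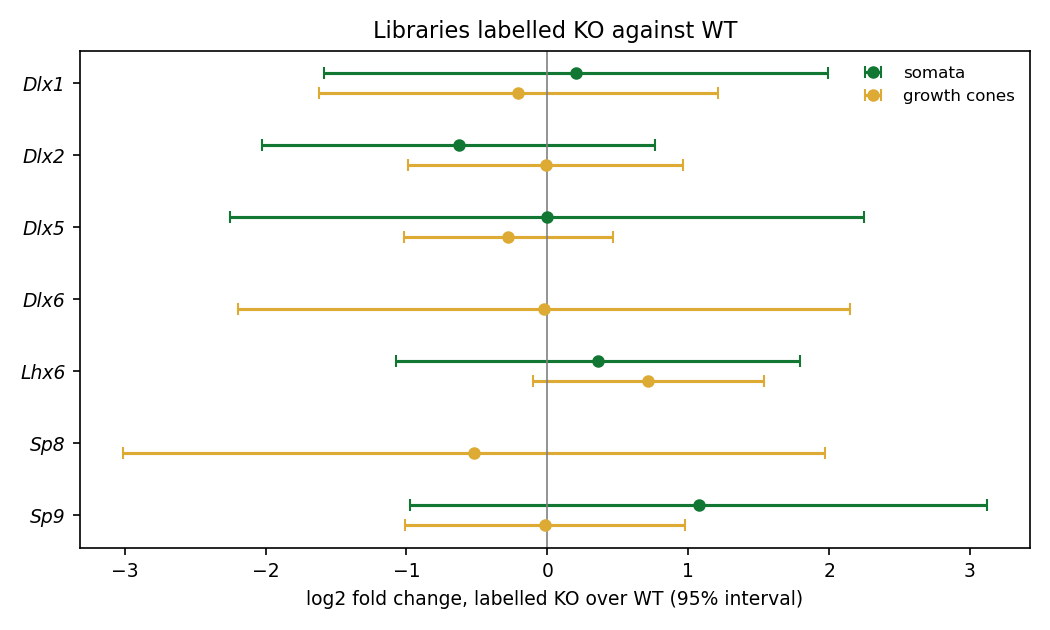
Log2 fold change of libraries labelled KO over WT for each gene, with 95% intervals from the edgeR fit, in somata and in growth cones. Every interval crosses 0, the narrowest being Dlx5 in growth cones (-1.02 to 0.47). Dlx6 and Sp8 in somata were below the count filter.

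Genes of the other lists that passed between soma groups were few. Npy stood at 106 ± 23.3 CPM in WT somata and 443 ± 50.6 CPM in somata labelled KO (log2 fold change 2.06, edgeR adjusted p = 0.000196), with no overlap. Etv1, an ETS factor gene of layer 5 neurons and of some interneuron progenitors, was 1.73 higher (edgeR adjusted p = 0.00475). Foxp1, a forkhead gene of striatal and cortical neurons, was lower (-0.92, edgeR adjusted p = 0.00917, and 0.202 in the fit of all 20 libraries). With the experiment number as a block neither call held (edgeR adjusted p = 0.0845 for Etv1 and 0.105 for Foxp1). Neurod6, a gene of glutamatergic cortical neurons, was 0.50 higher (edgeR adjusted p = 0.0491), but this call was lost in 12 of 17 alternatives. Leaving out 1 library ended it in 8 of 10 fits, with an edgeR adjusted p of 0.149 without soma 22 labelled KO. In the fit of all 20 libraries its edgeR adjusted p was 0.661. Gad1 (0.38) and Sst (0.20) had soma differences whose intervals crossed 0, as did Gad2 (-1.15, edgeR adjusted p = 0.669). The Npy difference was not shown to differ between compartments (interaction -1.997, edgeR adjusted p = 0.0718), although it passed with library totals (0.0341), by DESeq2 (6.83e-05) and in the fits that left out WT growth cone 11 (0.0235) or growth cone 7 labelled KO (0.0174). All of these directions depend on soma labels, and Bcl11b itself was higher in the somata labelled KO.

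Within somata the 7 genes summed to 14.7, 36.3, 13.3, 20.7 and 9.55 CPM in WT libraries 12, 14, 22, 25 and 26, and to 23.7, 10.8, 20.9, 36.8 and 5.53 CPM in libraries 14, 15, 22, 25 and 26 labelled KO. WT soma 14 and soma 25 labelled KO were highest, and soma 26 was lowest in both groups. The genes most like the members across the 10 soma libraries were ranked among 10252 genes that averaged 5 CPM or more, after centring each on its group means and using the mean of the 5 members that passed the filter. Slc25a25, a mitochondrial carrier gene, came first (Pearson r = 0.92), followed by Lhx2 (0.91), a LIM homeodomain gene of cortical progenitors, then Ccdc92 (0.91), Gmcl1 (0.90), Pbrm1 (0.90), Prrc2c (0.89), Cenpt (0.89), Arhgap39 (0.89), Suox (0.89) and Ppp1r1b (0.89), the gene of the striatal protein DARPP-32. The members themselves had r of 0.60 (Dlx2) to 0.88 (Sp9) with a mean that contains them. All values share the same 10 libraries and their depth, and the best of 10252 candidates is high by selection.

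The paired neighbours and the Sp paralogs were compared across the 10 growth cone libraries, which is 3 relations. Dlx1 and Dlx2 had a Pearson r of 0.27 (permutation p = 0.456, adjusted 0.684) and a Spearman rho of 0.09 (permutation p = 0.81, adjusted 0.865). Without the 2 libraries farthest in Dlx1 r was -0.03. Dlx5 and Dlx6 had an r of -0.46 (permutation p = 0.177, adjusted 0.531) and a rho of -0.58 (permutation p = 0.0892, adjusted 0.268). Without the 2 libraries farthest in Dlx5 r was -0.80, and it was -0.83 in WT and -0.19 in libraries labelled KO, each over 5 libraries. Sp8 and Sp9 had an r of -0.03 (permutation p = 0.934, adjusted 0.934) and a rho of -0.07 (permutation p = 0.865, adjusted 0.865), and r was -0.05 without the 2 libraries farthest in Sp8. None of the 3 relations passed the adjustment.

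**Figure D5:**
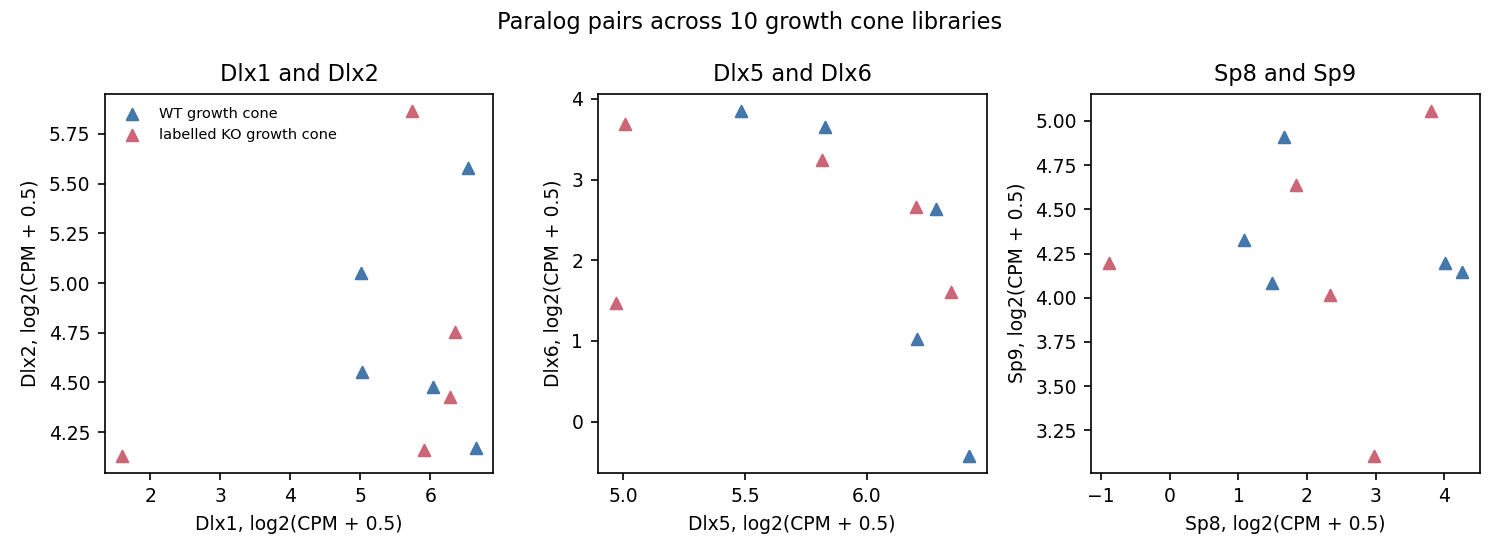
Levels of paired genes in the 10 growth cone libraries, as log2(CPM + 0.5). In the Dlx5 and Dlx6 panel the library with the highest Dlx5 has the lowest Dlx6 (r = -0.46). The Dlx1 and Dlx2 panel has an r of 0.27 and the Sp8 and Sp9 panel an r of -0.03. No relation shown passed the permutation test.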

How the data were processed

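RNA from 20 libraries (5 in each of 4 groups) was made into cDNA with the SMART-seq v4 kit and into libraries with the Nextera XT kit, per the labels' protocols. The authors deposited raw counts per gene as 1 table, with exon coordinates and an exon length (in bases) per gene, per the file headers. Per the submitters' processing notes, Trimmomatic 0.39, STAR 2.7.1a and featureCounts 1.5.0 were used and the build was GRCm39. The deposited exon coordinates, however, equal those of GENCODE M21 (GRCm38) for 54349 of 55487 genes (97.9%). Symbols were matched by gene identifier without its version for 55141 genes. The table held 0 entries that name no gene and 0 columns of other samples.

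Groups come from the sample titles. Counts were tested with edgeR 4.0.16 in R 4.3.3: filterByExpr (minimum count 10), TMM scaling, quasi-likelihood F test, Benjamini-Hochberg adjustment over all genes tested, threshold 0.05. Each fit held the 2 groups compared, and the interaction all 20 libraries. SE and 95% intervals were derived from the F statistic. The fits were tested on simulated data. Bcl11b was compared by exact permutation of log2(CPM + 0.5), and 100000 permutations were used for correlations. The named genes were all members, Bcl11b, Gad1, Gad2, Slc32a1, Nkx2-1, Npy, Sst and up to 4 genes per list, lowest p first, except for an item that is not reported here. Nfib in libraries labelled KO, Satb1 and Ptf1a lie outside that rule and were named after their values were seen. The members and lists were chosen with earlier results of these data known. Alternatives were other scalings, no filter, DESeq2 1.42.0, a fit of all 20 libraries, the experiment number as a block and leaving out each library.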

Additional observations from a re-analysis of the deposited data

Results flagged for a closer look

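Of 32 groups of 5 libraries examined for the 7 genes and Bcl11b, 3 held a library far from the other 4 by Dixon's ratio, where chance gives about 1 in 20. Dlx2 stood at 57.8 CPM in growth cone 10 labelled KO, with the next library at 26.5 CPM. Sp9 stood at 29.5 CPM in WT growth cone 9, with the next at 19.5 CPM. Dlx6 stood at 0.463 CPM in soma 14 labelled KO, with the next at 0.118 CPM, which is a matter of 18 against 5 counts. The compartment calls of these genes held without each of these libraries: Dlx2 in libraries labelled KO had a lowest log2 fold change of 2.19, without growth cone 10 labelled KO, and Dlx6 a highest of 7.29, without soma 14 labelled KO.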

How the results depend on the processing

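The number of members called stayed at 5 to 7 of those tested between compartments in WT and at 6 to 7 in libraries labelled KO, and at 0 in both genotype comparisons and in the interaction, under each alternative run. Over all genes the DESeq2 Wald test gave 402 genes in somata (main 109), 11 in growth cones (0) and 273 for the interaction (7). The fit of all 20 libraries gave 30 in somata and 7 in growth cones. It ended the soma calls of Bcl11b (edgeR adjusted p = 0.279), Foxp1 (0.202) and Neurod6 (0.661). Leaving out 1 library gave 67 to 107 genes in somata (67 without soma 22 labelled KO, 68 without WT soma 22) and 5 to 12 for the interaction (12 without WT growth cone 7, 11 without growth cone 7 labelled KO).

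The experiment number as a replicate block gave 34 genes in somata, 0 in growth cones and 0 for the interaction. Same-numbered libraries correlated by 0.0102 to 0.134 in 4 soma pairs and by 0.0268 to 0.105 in 5 growth cone pairs. These correlations were low, but 3 of the soma pairs and 4 of the growth cone pairs were best with their own number. Libraries of 1 experiment may therefore be linked. The main fits did not take the numbers as pairs and do not account for such a link. With the block the sign turned for Dlx1 (-0.88) and Sst (-0.090) in somata, Dlx6 (0.39) and Bcl11b (-0.016) in growth cones, and the interactions of Dlx1 (0.24), Dlx5 (0.43), Lhx6 (-0.040) and Sp8 (-0.86). It ended the soma calls of Etv1 (adjusted p = 0.0845), Foxp1 (0.105), Neurod6 (0.106) and Bcl11b (0.162), all by edgeR.

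In all, 48 estimates from alternatives had the opposite sign to the main estimate, none of them called either way (smallest edgeR adjusted p 0.877). Some differences are counted more than once, as their sign changed under several alternatives. Dlx5 in somata became 0.027 with library totals and Dlx6 in growth cones 0.0032 with the upper quartile. Leaving out 1 library turned some signs. In somata the values then ran from -0.71 to 0.51 (Dlx1), -0.81 to 0.42 (Dlx5) and -0.15 to 0.94 (Gad1). In growth cones they ran from -0.44 to 0.099 (Dlx1), -0.44 to 0.24 (Dlx2), -0.41 to 0.41 (Dlx6), -0.25 to 0.18 (Sp9), -1.09 to 0.054 (Sp8), -0.18 to 0.28 (Npy), -0.010 to 0.36 (Slc32a1), -0.028 to 0.30 (Sst) and -0.11 to 0.15 (Bcl11b, whose level difference by permutation ran from -0.15 to 0.12). For the interaction they ran from -0.76 to 0.45 (Dlx1), -0.68 to 0.51 (Dlx5), -2.10 to 0.57 (Dlx6) and -0.16 to 0.66 (Lhx6). The cause was not tested. Low soma counts of Dlx6 and Sp8 limit what the soma comparison can show.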
